A study of Mus musculus with 6 samples.

Results

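Fatty acids are built from glucose carbon by a short chain of cytosolic enzymes, and the genes of that chain were followed in gonadal white adipose tissue (GWAT) of *ob/ob/Fsp27-/-* and *ob/ob* mice. The 10 genes were *Acly*, *Me1*, *Acaca*, *Acacb*, *Fasn*, *Scd1*, *Scd2*, *Srebf1*, *Mlxipl* and *Thrsp*. They were taken by name from the genes of fatty acid synthesis, desaturation and their transcription factors, and each was read from its probeset with 1 gene symbol and the highest mean over all arrays. All 10 were measured, out of 19937 genes on the array. Their values were above the median of all values on every array, the lowest being 6.88 against a median of 6.07.

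The animals were *ob/ob/Fsp27-/-* males, deficient in both leptin and Fsp27, and *ob/ob* males, deficient in leptin alone. Fsp27 (gene *Cidec*) is a lipid droplet protein that promotes droplet fusion, and leptin is the satiety hormone made by adipocytes, and both groups carried the leptin deficiency. Both deficiencies are germline and present in every tissue. All mice were fed chow and were 4 months old, and their background was C57BL/6J. GeneChip Mouse Gene 1.0 ST arrays were used, 3 per genotype. The study's methods state that the RNA on an array was pooled from several mice, whereas pools are not mentioned in the sample labels, which number each array singly. An array was therefore taken as 1 replicate, the arrays are numbered 1, 2 and 3 within a genotype as names only, and p-values measure the spread between arrays and not between single mice.

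In this pathway citrate exported from mitochondria is cleaved to acetyl-CoA, acetyl-CoA is carboxylated to malonyl-CoA, and fatty acid synthase joins malonyl-CoA units into palmitate with the reducing power of NADPH. Desaturases then place the first double bond, and the products are esterified into triglyceride. The transcription factors SREBP-1c, which responds to insulin, and ChREBP, which responds to glucose metabolites, are known to switch these enzymes on in liver and fat.

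The stretches before the annotated starts of these genes are shown because the members are often treated as one set of SREBP and ChREBP targets. They were taken from the RefSeq promoter table (mouse build GRCm38.p6), and any window placed on another chromosome than its gene was left out. This left 12 windows for 8 of the 10 genes and none for *Scd1* and *Scd2*. Each window is the 250 bases before a start, written 5′ to 3′ on the gene's strand. *Acacb* is shown as the member with the largest change, *Mlxipl* for its E-box and sterol element, *Fasn* and *Srebf1* as the synthase and its best known activator, and *Acly* as a member that was not called. Capitals mark 4 motifs searched on both strands, the E-box CACGTG, the NF-Y box CCAAT, the GC box GGGCGG and the sterol element TCACNCCAC.
*Acacb* chr5:114165268-114165517, plus strand: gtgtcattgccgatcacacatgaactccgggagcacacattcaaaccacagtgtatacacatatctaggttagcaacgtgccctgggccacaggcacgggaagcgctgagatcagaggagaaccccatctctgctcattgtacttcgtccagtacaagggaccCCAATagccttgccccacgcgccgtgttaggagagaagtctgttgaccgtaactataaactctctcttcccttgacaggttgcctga
*Mlxipl* chr5:135089640-135089889, plus strand: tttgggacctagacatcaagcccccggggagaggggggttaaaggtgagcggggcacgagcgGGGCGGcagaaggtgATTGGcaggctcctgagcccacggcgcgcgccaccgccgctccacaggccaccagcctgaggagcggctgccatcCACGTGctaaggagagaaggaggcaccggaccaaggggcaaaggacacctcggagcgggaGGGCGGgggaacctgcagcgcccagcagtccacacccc
*Mlxipl* second start chr5:135106641-135106890, plus strand: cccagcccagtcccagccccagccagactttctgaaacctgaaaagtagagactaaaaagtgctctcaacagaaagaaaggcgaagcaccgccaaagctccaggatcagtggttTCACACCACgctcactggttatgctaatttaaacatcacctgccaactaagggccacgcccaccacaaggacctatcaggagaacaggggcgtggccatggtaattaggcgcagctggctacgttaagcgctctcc
*Fasn* chr11:120824548-120824797, minus strand: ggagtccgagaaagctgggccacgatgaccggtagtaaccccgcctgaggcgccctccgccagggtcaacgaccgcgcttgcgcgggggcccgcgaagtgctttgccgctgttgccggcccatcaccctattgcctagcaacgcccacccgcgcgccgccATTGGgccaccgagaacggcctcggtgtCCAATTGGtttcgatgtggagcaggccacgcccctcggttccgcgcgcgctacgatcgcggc
*Srebf1* chr11:60210472-60210721, minus strand: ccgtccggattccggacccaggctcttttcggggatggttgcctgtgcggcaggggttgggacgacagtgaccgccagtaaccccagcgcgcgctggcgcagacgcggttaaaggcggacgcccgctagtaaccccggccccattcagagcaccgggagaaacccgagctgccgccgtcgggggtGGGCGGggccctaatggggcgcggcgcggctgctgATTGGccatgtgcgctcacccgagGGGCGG
*Acly* chr11:100528001-100528250, minus strand: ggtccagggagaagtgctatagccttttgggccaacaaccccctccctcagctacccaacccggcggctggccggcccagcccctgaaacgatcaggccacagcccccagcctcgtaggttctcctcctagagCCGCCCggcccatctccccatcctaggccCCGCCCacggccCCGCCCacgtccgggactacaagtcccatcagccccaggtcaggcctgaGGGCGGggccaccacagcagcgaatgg

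The *Acly* window and the first *Mlxipl* window lay outside the annotated gene, directly before its 5′ end. The *Acacb* window and the second *Mlxipl* window lay inside the gene span, before starts 19197 and 17001 bases from the gene's 5′ end, and the printed ones of *Fasn* and *Srebf1* before starts 619 and 13715 bases from it. Further *Srebf1* windows, not printed, lay before starts 3559 and 1605 bases from its 5′ end. The former held GC boxes and no NF-Y box, the latter an NF-Y box and no GC box. An NF-Y box was found in 7 of the 12 windows, against 33.8% of the 32851 windows of the same length in the table. These 7 windows belonged to 6 of the 8 genes, some of which had more than 1 window, so the gene count cannot be set against that share. *Fasn* held 3 NF-Y boxes, the nearer ones overlapping on opposite strands. A GC box was found in 5 windows of 4 genes, with 4 copies in *Acly*, and occurs in 32.7% of all windows. The E-box stood in the first *Mlxipl* window alone of the 12, 98 bases before the start, and occurs in 6.02% of all windows. The sterol element stood in the second *Mlxipl* window alone, 136 bases before the start, and occurs in 1.05% of all windows. The only *Acaca* window, not printed, lay inside the gene span, before a start 65803 bases from its 5′ end, and held none of these motifs. For *Acaca*, *Acacb*, *Fasn* and *Srebf1* every window lay inside the gene span. The stretch before the 5′ end of these genes was not searched, so the absence of a motif does not cover it. A match of letters is a description and was not set against binding data.

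The carboxylases, the synthase, malic enzyme and both transcription factors were higher in *ob/ob/Fsp27-/-* than in *ob/ob* GWAT. The citrate lyase, the desaturases and *Thrsp* did not pass the test, although the change of *Thrsp* was large (log2 1.65). A gene was called at an adjusted p under 0.05 (limma, Benjamini-Hochberg over 22961 probesets) and a change of 0.5 or more on the log2 scale in either direction. By this rule 6 of the 10 genes rose and 0 fell on the deposited scale, whereas with each array centred on white adipocyte markers 3 were higher and 2 lower. Over all genes, 9.58% were called higher and 10.8% lower on the deposited scale, and 0.928% higher and 84.9% lower with that centring. The median change was 1.22 on the log2 scale over the 10 genes and 0.058 over all genes. Every value below is an RMA value, the log2 level that the Robust Multi-array Average algorithm gives, with n = 3 arrays per genotype.

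**Figure D1:**
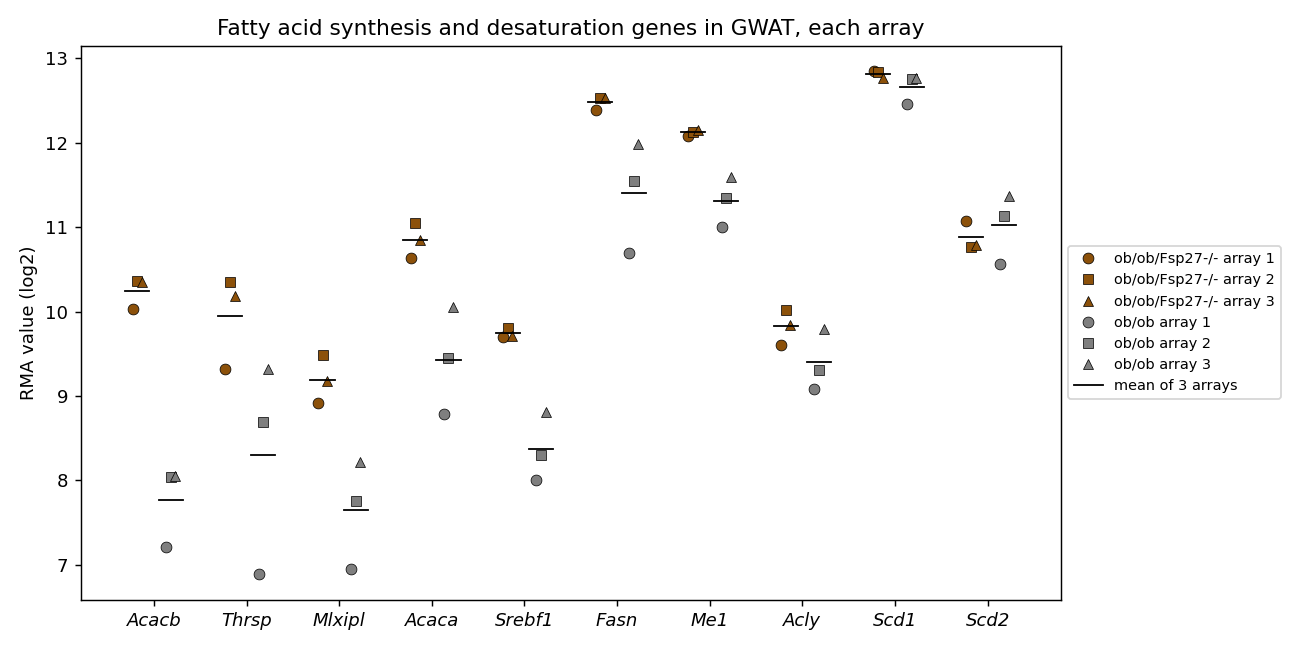
RMA values (log2, vertical axis) of the 10 genes in GWAT, brown for the 3 *ob/ob/Fsp27-/-* arrays and grey for the 3 *ob/ob* arrays, with a line at each mean. The brown points all lie above the grey for 7 of the 10 genes, and array 1 is the lowest *ob/ob* point for every gene.

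*Acly* encodes ATP citrate lyase, which releases cytosolic acetyl-CoA from citrate. Its values were 9.61, 10.02 and 9.84 on the *ob/ob/Fsp27-/-* arrays and 9.09, 9.31 and 9.79 on the *ob/ob* arrays. The highest *ob/ob* array lay among the *ob/ob/Fsp27-/-* arrays, so the genotypes overlapped. The log2 fold change was 0.43 (standard error 0.19, 95% interval −0.03 to 0.88) and did not pass the test (limma adjusted p = 0.150), whereas it was 0.63 and passed without *ob/ob* array 3 (adjusted p = 0.0230) and was 0.27 without *ob/ob* array 1 (adjusted p = 0.359). *Me1* encodes cytosolic malic enzyme, which makes NADPH while turning malate into pyruvate. It measured 12.08, 12.13 and 12.16 on the *ob/ob/Fsp27-/-* arrays, against 10.998, 11.35 and 11.59 on the *ob/ob* arrays. The *ob/ob/Fsp27-/-* arrays were nearly level and all above the *ob/ob* arrays. *Me1* was 1.75-fold higher (log2 0.81, standard error 0.15, limma adjusted p = 0.00604), although its sign turned with arrays centred on white adipocyte markers (log2 −0.13). Another *Me1* probeset gave 11.16, 10.89 and 11.44 on the *ob/ob/Fsp27-/-* arrays and 9.91, 10.33 and 10.16 on the *ob/ob* arrays, and its log2 fold change was 1.03 (standard error 0.17, limma adjusted p = 0.00371).

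The 2 acetyl-CoA carboxylases make malonyl-CoA in different places. *Acaca* encodes the cytosolic form, whose product is the substrate of fatty acid synthase, and *Acacb* the form at the mitochondrial surface, whose product restrains the entry of fatty acids for oxidation. *Acacb* measured 10.03, 10.37 and 10.35 on the *ob/ob/Fsp27-/-* arrays, against 7.21, 8.04 and 8.05 on the *ob/ob* arrays. The genotypes were far apart compared with the spread within either. *Acacb* rose 5.57-fold (log2 2.48, standard error 0.23, 95% interval 1.93 to 3.03, limma adjusted p = 0.000390), which was the largest change among the 10 and ranked 175 by size among all genes. *Acaca* measured 10.63, 11.05 and 10.85 on the *ob/ob/Fsp27-/-* arrays, against 8.79, 9.45 and 10.05 on the *ob/ob* arrays. No *ob/ob* array reached the *ob/ob/Fsp27-/-* range, but the *ob/ob* arrays were spread over more than 1 log2 unit. *Acaca* rose 2.66-fold (log2 1.41, standard error 0.30, limma adjusted p = 0.0111), and without *ob/ob/Fsp27-/-* array 2 its adjusted p was 0.0502. A further *Acaca* probeset, with 10.27, 10.61 and 10.50 on the *ob/ob/Fsp27-/-* arrays and 8.46, 9.03 and 9.45 on the *ob/ob* arrays, changed by 1.48 on the log2 scale (standard error 0.24, limma adjusted p = 0.00373).

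*Fasn* encodes fatty acid synthase, the multifunctional enzyme that assembles palmitate. It measured 12.39, 12.53 and 12.53 on the *ob/ob/Fsp27-/-* arrays, against 10.69, 11.55 and 11.98 on the *ob/ob* arrays. The *ob/ob/Fsp27-/-* arrays were tightly grouped above all *ob/ob* arrays. *Fasn* rose 2.11-fold (log2 1.07, standard error 0.30, 95% interval 0.38 to 1.77, limma adjusted p = 0.0319). This call was lost without any one of the 3 *ob/ob/Fsp27-/-* arrays (adjusted p 0.0607 to 0.0992) and without *ob/ob* array 2 (adjusted p = 0.0717). Without *ob/ob* array 1 it was kept, with a log2 fold change of 0.72 (adjusted p = 0.0148).

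*Scd1* and *Scd2* encode stearoyl-CoA desaturases, which turn saturated into monounsaturated fatty acids. *Scd1* measured 12.85, 12.83 and 12.77 on the *ob/ob/Fsp27-/-* arrays, against 12.46, 12.75 and 12.77 on the *ob/ob* arrays. Its *ob/ob/Fsp27-/-* arrays and the upper *ob/ob* arrays lay within 0.1 log2 units of one another, close to the top of a scale whose array maxima were 13.35 to 13.57. The log2 fold change was 0.16 (95% interval −0.09 to 0.40, limma adjusted p = 0.314), with a lower value in *ob/ob/Fsp27-/-* mice when arrays were centred on white adipocyte markers (log2 −0.79). *Scd2* measured 11.08, 10.77 and 10.79 on the *ob/ob/Fsp27-/-* arrays, against 10.56, 11.13 and 11.37 on the *ob/ob* arrays. These ranges overlapped and the *ob/ob* arrays were both the lowest and the highest. The log2 fold change was −0.14 (95% interval −0.63 to 0.35, limma adjusted p = 0.656), and its sign turned when arrays were centred on housekeeping genes (log2 0.021) or *ob/ob* array 3 was left out (log2 0.034). *Scd2* was thus the member with the lowest change, and a change of more than 0.63 downwards or 0.35 upwards lay outside its interval.

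*Srebf1* encodes the SREBP-1 transcription factors. It measured 9.70, 9.81 and 9.71 on the *ob/ob/Fsp27-/-* arrays, against 8.004, 8.30 and 8.81 on the *ob/ob* arrays. The gap between the genotypes was wider than the spread within either. *Srebf1* rose 2.59-fold (log2 1.37, standard error 0.19, 95% interval 0.92 to 1.82, limma adjusted p = 0.00206). *Mlxipl*, which encodes ChREBP, measured 8.92, 9.49 and 9.17 on the *ob/ob/Fsp27-/-* arrays, against 6.95, 7.76 and 8.22 on the *ob/ob* arrays. Both genotypes were spread, and they did not overlap. *Mlxipl* rose 2.93-fold (log2 1.55, standard error 0.31, 95% interval 0.81 to 2.29, limma adjusted p = 0.00933). *Thrsp* encodes Spot 14, a small protein induced by thyroid hormone and carbohydrate that is linked to fatty acid synthesis. It measured 9.32, 10.35 and 10.19 on the *ob/ob/Fsp27-/-* arrays, against 6.88, 8.70 and 9.32 on the *ob/ob* arrays. The lowest *ob/ob/Fsp27-/-* array and the highest *ob/ob* array were level, and *ob/ob* array 1 stood far below the rest. The log2 fold change of *Thrsp* was 1.65 with a standard error of 0.60 (95% interval 0.23 to 3.07) and did not pass the test (limma adjusted p = 0.0826). Without *ob/ob* array 1 it was 0.94 (adjusted p = 0.0960), whereas without *ob/ob* array 3 it was 2.16 and passed (adjusted p = 0.0317).

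**Figure D2:**
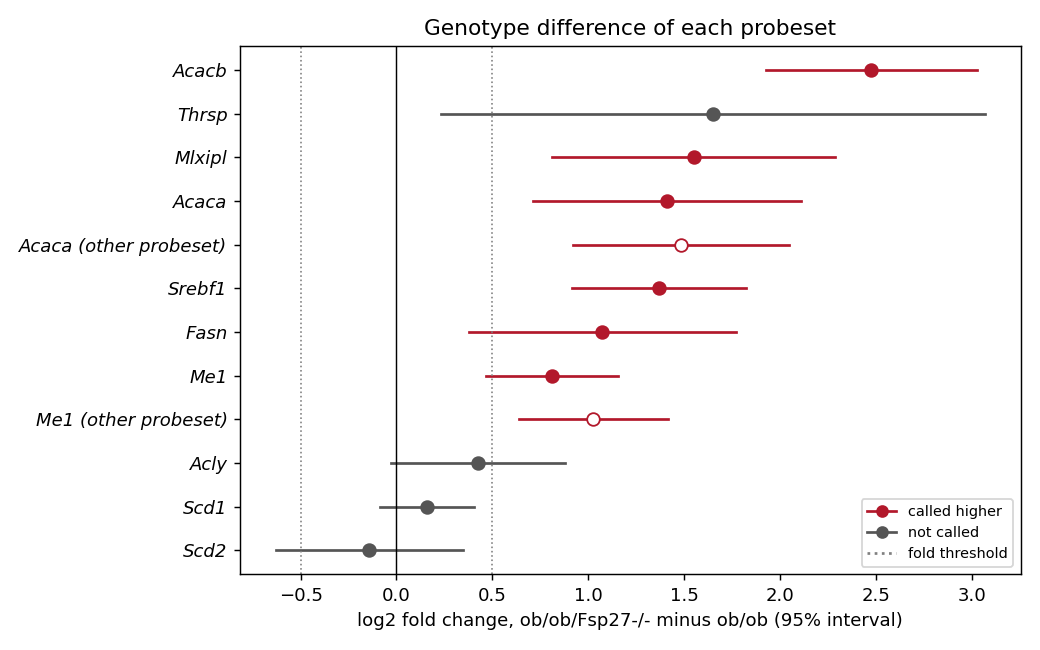
Log2 fold change (*ob/ob/Fsp27-/-* minus *ob/ob*, horizontal axis) of each probeset of the 10 genes with its 95% interval, in red where called higher, with open circles for the other probesets of *Acaca* and *Me1*. *Acacb* stands at 2.48, and the intervals of *Acly*, *Scd1* and *Scd2* cross 0.

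By size of change the order was *Acacb*, *Thrsp*, *Mlxipl*, *Acaca*, *Srebf1*, *Fasn*, *Me1*, *Acly*, *Scd1* and *Scd2*. Every pair of neighbours in this order had overlapping 95% intervals. The lower bound for *Acacb* (1.93) lay above the upper bounds for *Srebf1* (1.82) and *Fasn* (1.77), but not above that for *Acaca* (2.11). In 7 of the 10 genes all *ob/ob/Fsp27-/-* arrays were above all *ob/ob* arrays, which held for 25.3% of all genes, and *Scd1* was among the 7 by a margin smaller than the rounding of its values.

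Pairs of genes with related roles were compared within arrays, where the array's own level cancels. The log2 ratio of *Acacb* over *Acaca* was −0.60, −0.68 and −0.50 on the *ob/ob/Fsp27-/-* arrays, against −1.58, −1.41 and −2.003 on the *ob/ob* arrays. The ratio was higher on every *ob/ob/Fsp27-/-* array than on any *ob/ob* array. The difference was 1.07 (standard error 0.18), with a two-sided exact permutation p = 0.1, which is the smallest that 3 against 3 arrays can give, and 0.3 after adjustment over the 3 pairs compared. The ratio of *Scd1* over *Scd2* was 1.77, 2.07 and 1.98 on the *ob/ob/Fsp27-/-* arrays and 1.90, 1.63 and 1.40 on the *ob/ob* arrays. These overlapped, with a difference of 0.30 (standard error 0.17, exact permutation p = 0.2, adjusted p = 0.3). For *Mlxipl* over *Srebf1* the difference was 0.18 (standard error 0.21, exact permutation p = 0.5, adjusted p = 0.5), with −0.78, −0.32 and −0.54 on the *ob/ob/Fsp27-/-* arrays and −1.06, −0.54 and −0.59 on the *ob/ob* arrays.

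The spread of the genes had a direction in common. The SD was smaller among the *ob/ob/Fsp27-/-* arrays than among the *ob/ob* arrays in 10 of 10 genes, compared with 11 of 12 white adipocyte markers, 11 of 13 genes of glycerolipid synthesis and 45.2% of all genes, as with 0.081 in *ob/ob/Fsp27-/-* and 0.66 in *ob/ob* mice for *Fasn*, and 0.039 in *ob/ob/Fsp27-/-* and 0.30 in *ob/ob* mice for *Me1*. Array 1 was the lowest of the *ob/ob* arrays in 10 of 10 genes, as it was for 34.3% of all genes. With each gene centred on its own mean, the 10 genes averaged 0.39, 0.66 and 0.57 on the *ob/ob/Fsp27-/-* arrays, against −1.11, −0.44 and −0.073 on the *ob/ob* arrays. Array 1 thus lay farther from the other *ob/ob* arrays than the nearest arrays of the 2 genotypes lay from each other. Without *ob/ob* array 1 the same 6 genes were called, and the log2 fold changes of *Acacb*, *Mlxipl*, *Srebf1* and *Acaca* were then 2.20, 1.20, 1.19 and 1.09.

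Some lists of cell type markers moved with these genes, some moved against them and some had no call. The shares over all genes were 9.58% called higher and 10.8% lower. White adipocyte markers had a mean level of 12.002, 12.03 and 12.08 on the *ob/ob/Fsp27-/-* arrays, against 10.67, 11.15 and 11.45 on the *ob/ob* arrays, and 10 of the 12 measured were called higher and 0 lower. *Adipoq*, the adiponectin gene, changed by 1.20 (limma adjusted p = 0.0109) and *Plin1*, a coat protein of the lipid droplet, by 0.86 (limma adjusted p = 0.0182). Array 1 was the lowest *ob/ob* array for 12 of these 12 markers, as it was for the 10 genes. Of the 14 macrophage markers 13 were called lower, with a mean level of 7.81, 8.02 and 7.98 on the *ob/ob/Fsp27-/-* arrays, against 10.41, 10.34 and 10.16 on the *ob/ob* arrays. *Adgre1*, which encodes a macrophage surface antigen, changed by −3.21 and *Cd68* by −2.68 on the log2 scale (limma adjusted p = 7.82e-06 and 4.06e-05). By this mean every *ob/ob/Fsp27-/-* array lay below every *ob/ob* array. Endothelial markers were called higher in 5 of 8 cases with *Pecam1* at 0.41 (adjusted p = 0.140), stromal progenitor markers lower in 5 of 9, and brown and beige markers higher in 6 of 8, where *Ucp1* at 0.40 was not called (adjusted p = 0.415). No marker of lymphocytes (8), epididymal epithelium (5), mesothelium (6) or skeletal muscle (6) was called, and the epididymal markers were at 3.85 to 5.90. In whole tissue, more adipocytes among the cells and more RNA per adipocyte cannot be told apart, and the part of tissue makeup in the changes of the 10 genes was not tested.

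**Figure D3:**
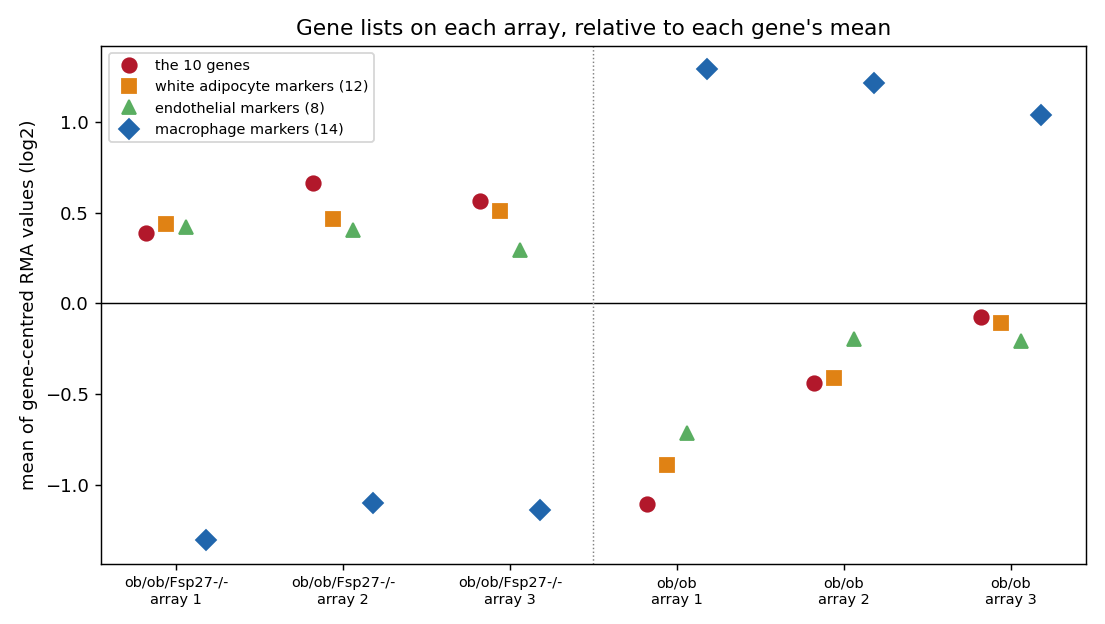
Mean of gene-centred RMA values (log2, vertical axis) on each of the 6 arrays for the 10 genes and 3 lists of cell type markers. The 10 genes and the white adipocyte markers run close together, at 0.57 and 0.51 on *ob/ob/Fsp27-/-* array 3 against −1.11 and −0.89 on *ob/ob* array 1, and the macrophage markers run the other way.

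Set against the white adipocyte markers on the same array, the 10 genes parted into those that exceeded the markers' own change of 0.94 and those that fell short of it. *Acacb* was 1.53 higher relative to the markers (limma adjusted p = 5.85e-07), *Thrsp* 0.71 (adjusted p = 0.0156, with overlapping arrays) and *Mlxipl* 0.61 (adjusted p = 0.0373). On this scale 0.928% of all genes were called higher. *Acaca* at 0.47, *Srebf1* at 0.43, *Fasn* at 0.13 and *Me1* at −0.13 were not called (adjusted p 0.108 to 0.658), and neither was *Acly* at −0.52 (adjusted p = 0.0762). *Scd1* at −0.79 (adjusted p = 0.00791) and *Scd2* at −1.09 (adjusted p = 0.000462) were called lower, as were 84.9% of all genes. This scale was chosen after the values were seen, and most of its markers were themselves called higher. It gave 17106 called genes, and the limma adjusted p of *Thrsp* fell from 0.0826 to 0.0156 although its change shrank from 1.65 to 0.71. Adjusted p-values on this scale therefore cannot be set beside those on the deposited scale. They were not read as evidence that a gene exceeded the markers.

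**Figure D4:**
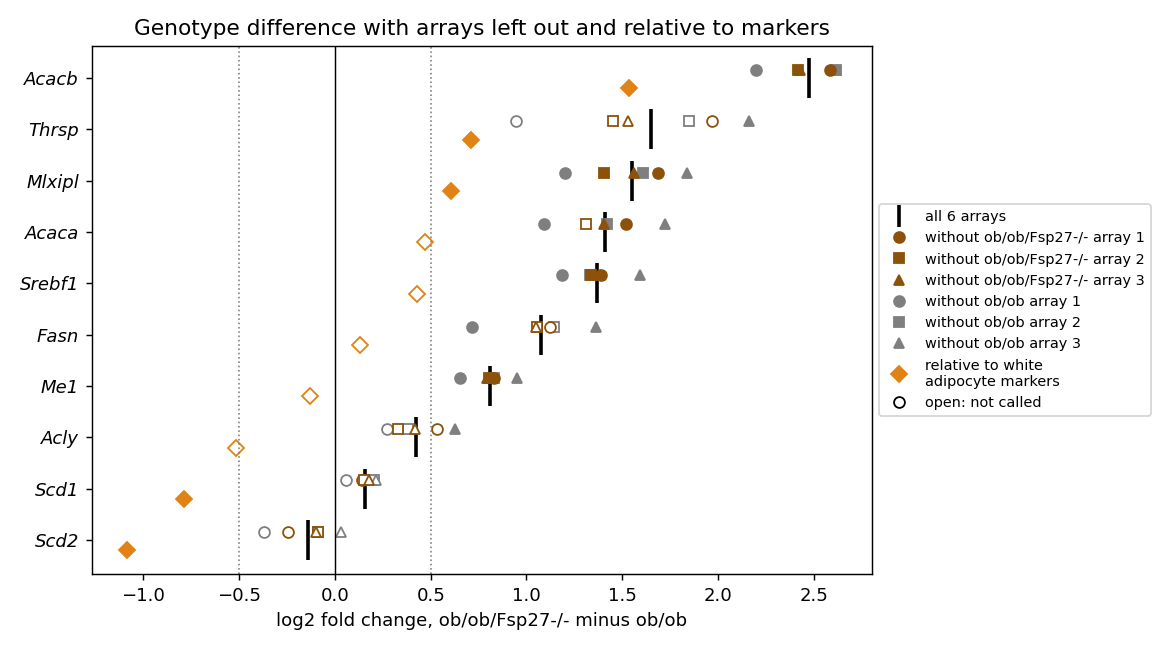
Log2 fold change (*ob/ob/Fsp27-/-* minus *ob/ob*, horizontal axis) of the 10 genes with all arrays (bar), with each array left out (brown and grey symbols) and relative to white adipocyte markers (diamonds), open where not called. *Acacb* was called in each setting shown, and *Acly*, *Scd1* and *Me1* changed sign relative to the markers.

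Around the 10 genes, transcripts for citrate export and its refilling were higher, and those of the NADPH-making enzymes *Pgd* and *Idh1* stayed below the fold threshold. Of 11 measured genes for acetyl-CoA and NADPH supply, 6 were called higher and 0 lower, with a median of 0.69 on the log2 scale. The shares over all genes were 9.58% higher and 10.8% lower. The mitochondrial citrate exporter *Slc25a1* rose by 1.76 (standard error 0.16, limma adjusted p = 0.000332), its values being 12.31, 12.41 and 12.40 on the *ob/ob/Fsp27-/-* arrays and 10.33, 10.56 and 10.97 on the *ob/ob* arrays. Pyruvate carboxylase *Pcx*, which refills oxaloacetate, rose by 1.64, the acetate-activating enzyme *Acss2* by 1.11 and cytosolic malate dehydrogenase *Mdh1* by 1.02. Among NADPH-making enzymes, *Me1* of the 10 genes was called higher (log2 0.81). Those measured in the supply list, named after their values were seen, had smaller values. *Pgd* of the pentose phosphate route was at 0.36 and the isocitrate dehydrogenase *Idh1* at 0.23 on the log2 scale. *Pgd* did pass the adjusted p (limma adjusted p = 0.0138), and with arrays centred on housekeeping genes it was called higher (log2 0.53). *G6pdx* of the same route was not measured. Its genes *Rpe* at 0.70 and *Taldo1* at 0.69, also named after their values were seen, were called higher. Citrate export was thus called where its cleavage by *Acly* was not, but the difference between the 2 genes was not tested.

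Genes that lengthen and further desaturate fatty acids changed in both directions. Of 22, 7 were called higher and 3 lower, against 9.58% and 10.8% of all genes, with a median of 0.29. The elongase *Elovl3*, a gene of brown and beige fat, rose by 5.97 and the elongases *Elovl7* and *Elovl4* by 2.60 and 2.42, and the desaturase *Scd3*, a relative of *Scd1* and *Scd2*, rose by 1.46 (standard error 0.16, limma adjusted p = 0.000647). *Scd3* measured 7.14, 7.06 and 7.54 on the *ob/ob/Fsp27-/-* arrays and 5.84, 5.57 and 5.95 on the *ob/ob* arrays, without overlap. The dehydratase *Hacd4* fell by 2.00, the elongase *Elovl1* by 1.07 and the delta-5 desaturase *Fads1* by 1.06 on the log2 scale.

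Genes that pass fatty acids on into glycerolipid were mostly higher. Of 13 measured, 8 were called higher and 2 lower, against 9.58% and 10.8% of all genes, with a median of 0.69. Glycerol-phosphate acyltransferase *Gpat3* rose by 2.42 (standard error 0.093, limma adjusted p = 2.36e-05), the phosphatidate phosphatase *Lpin1* by 1.48, diacylglycerol acyltransferase *Dgat1* by 1.31 and *Agpat2*, which makes phosphatidate, by 1.29. The acyl-CoA synthetases *Acsl5* and *Acsl4* fell by 1.57 and 0.75. Macrophage markers moved the same way as these lower genes, and their part was not tested.

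The sterol branch of the SREBP system, which *Srebf2* governs, had members on both sides. Of 14 measured genes of SREBP processing and cholesterol targets, 3 were called higher and 3 lower, with a median of 0.18. The shares over all genes were 9.58% higher and 10.8% lower. With arrays centred on housekeeping genes 6 of the list were higher and 1 lower, where 3083 and 1601 of all 19937 genes were. *Insig1*, which holds the SREBP complex in the endoplasmic reticulum and is itself a target, rose by 1.26 (standard error 0.16, limma adjusted p = 0.00150), and the cholesterol synthesis genes *Lss* and *Hmgcs1* by 0.95 and 0.88. *Sqle* and *Idi1*, of the same route, fell by 0.84 and 0.65, and *Srebf2* fell by 0.60 (standard error 0.13, limma adjusted p = 0.0136). With housekeeping centring *Srebf2* (log2 −0.44) and *Idi1* (log2 −0.49) were below the fold threshold and lost their calls, while *Srebf1* at 1.53 kept its own. The call of *Idi1* also rests on 1 probeset, since another gave −0.21 (adjusted p = 0.236).

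Of 29 measured genes listed as regulators of lipogenesis, 8 were called higher and 2 lower, with a median of 0.18. The shares over all genes were 9.58% higher and 10.8% lower. The kinase inhibitor *Trib3* rose by 1.37, the AMP-activated kinase subunit *Prkaa2* by 1.34, the insulin receptor substrate *Irs1* by 1.13 and the insulin-responsive kinase *Akt2* by 1.01. *Prkaa2* measured 8.32, 8.36 and 8.48 on the *ob/ob/Fsp27-/-* arrays, against 6.41, 7.25 and 7.49 on the *ob/ob* arrays (limma adjusted p = 0.00754). It encodes a catalytic subunit of the kinase known to phosphorylate the carboxylases. The other 5 subunits listed, named after their values were seen, were not called, *Prkaa1* among them at −0.09. Of these, *Prkag1* at 0.39 did pass the adjusted p (limma adjusted p = 0.0263). With arrays centred on housekeeping genes *Prkag1* was called higher (log2 0.55). *Nfya*, a subunit of the factor that binds the NF-Y box printed above, fell by 1.16 (8.22, 8.17 and 8.39 on the *ob/ob/Fsp27-/-* arrays, against 9.50, 9.35 and 9.40 on the *ob/ob* arrays, limma adjusted p = 0.000204). Its partner subunits, named after their values were seen, were below the fold threshold and on both sides. *Nfyb* was at −0.30 (limma adjusted p = 0.0264) and *Nfyc* at 0.34 (limma adjusted p = 0.0382). *Mid1*, the other listed gene called lower, fell by 0.72, but whether it belongs among regulators of lipogenesis at all was not examined. *Mid1ip1*, named after its value was seen, was at 0.14 and was not called (limma adjusted p = 0.486).

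Mitochondria hold a separate fatty acid synthesis route that makes the precursor of lipoic acid. Of its 9 measured genes, 7 were called higher and 0 lower, against 9.58% and 10.8% of all genes, with a median of 0.996. The enoyl reductase *Mecr* rose by 1.79, the acyl carrier protein *Ndufab1* by 1.29, the malonyl-CoA synthetase *Acsf3* by 1.17 and the reductase subunit *Cbr4* by 1.02.

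**Figure D5:**
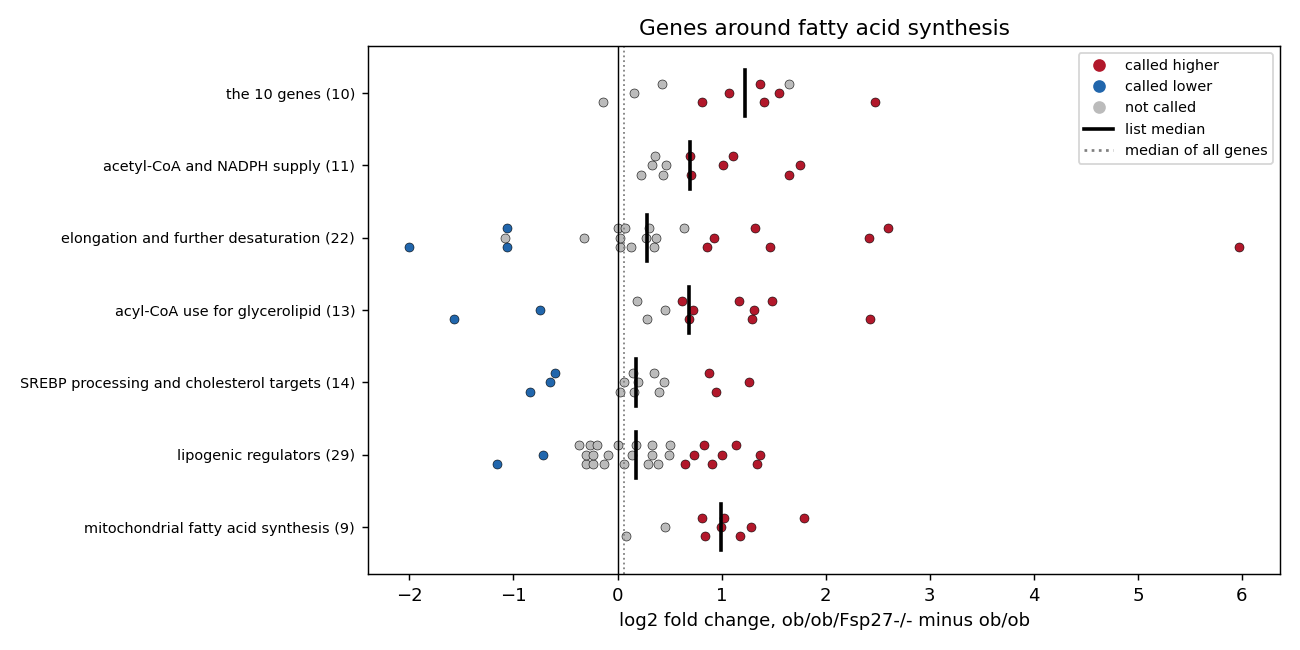
Log2 fold change (*ob/ob/Fsp27-/-* minus *ob/ob*, horizontal axis) of every measured gene in the 10 genes and 6 lists around them, in red where called higher, blue where called lower and grey otherwise, with a bar at each list's median. The medians are 1.22 for the 10 genes and 0.996 for mitochondrial fatty acid synthesis, against 0.058 for all genes (dotted).

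The deposited scale sets the zero of all these counts. With arrays centred on 10 measured housekeeping genes, whose level was 0.16 lower on the *ob/ob/Fsp27-/-* arrays, 3083 genes were called higher and 1601 lower, against 1910 and 2158 on the deposited scale. Of the lists, the supply genes then had 9 higher, those of elongation 8 higher and 3 lower, the regulators 10 higher and 2 lower, and mitochondrial synthesis 8 higher. The same 6 of the 10 genes were called under that centring, and *Thrsp* passed as well (log2 1.82, limma adjusted p = 0.0449). Arrays correlated at 0.988 to 0.992 within *ob/ob/Fsp27-/-*, 0.990 to 0.993 within *ob/ob* and 0.943 to 0.965 between genotypes. *Cidec* measured 11.34, 11.51 and 11.53 on the *ob/ob/Fsp27-/-* arrays and 11.49, 11.78 and 11.98 on the *ob/ob* arrays (log2 −0.29, limma adjusted p = 0.157). Where its probes lie relative to the disrupted part of the gene is not given in the sources used here, so this does not check the labels.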

How the data were processed

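The authors deposited RMA values on the log2 scale for 6 arrays, made by adjusting the background, normalizing the arrays by quantiles and summarizing probes per transcript. Quantile normalization gives all arrays 1 distribution, so a change in some abundant transcripts can shift the values of others. Of 34760 probesets, 22961 with a gene symbol were tested, and genes were counted over the 21640 with 1 symbol. Symbols were brought up to date by Entrez number. The genotypes were compared with limma 3.58.1 in R 4.3.3, without covariates and with Benjamini-Hochberg adjustment, at the thresholds of the study's methods. Their filter on detection above background was not repeated, and no filter was set in the main comparison. The procedure was tested on simulated data. Arrays have no read depth, and 3 arrays per genotype limit the precision.

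The members and lists were chosen with earlier results of these data known. Named genes were the members, *Cidec*, up to 4 called genes per list and direction by size, 6 stated markers and the 5 genes with the nearest profile. Some listed genes were not analysed here. Alternatives were filters on level, all probesets, other centrings, cyclic loess, other variance models, fold thresholds and treat, the mean of a gene's probesets and leaving out each array. Plots used matplotlib 3.10.9 (python 3.11.15).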

Additional observations from a re-analysis of the deposited data

How the results depend on the processing

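No paired analysis was possible because the labels give the arrays of the genotypes no shared numbers. *Acacb* was called in all 20 alternatives, *Srebf1* and *Mlxipl* in 19, *Acaca* and *Me1* in 17 and *Fasn* in 14. Left out one at a time, the arrays gave 3589 to 4466 called genes in all and 4 to 8 of the 10 genes, 4 to 8 of the supply list, 10 to 11 of elongation, 8 to 10 of glycerolipid, 4 to 6 of SREBP, 10 to 11 of the regulators and 6 to 8 of mitochondrial synthesis. The within-array differences were then 0.895 to 1.19 for *Acacb* over *Acaca*, 0.178 to 0.428 for *Scd1* over *Scd2* and 0.016 to 0.297 for *Mlxipl* over *Srebf1*. At a fold threshold of 1 on the log2 scale 1607 genes were called in all, 6 of the glycerolipid list, 1 of SREBP, 5 of the regulators and 4 of mitochondrial synthesis. With treat, which tests against the fold threshold, 1505 genes were called, with 2 of the 10 genes (*Acacb* and *Srebf1*), 2 of supply, 6 of glycerolipid, 2 of SREBP and 2 of the regulators. With no fold threshold 10 of the supply list were called. A higher bar for the fold change makes fewer calls by construction. Centring on white adipocyte markers, added after seeing the data, gave 17106 called genes, and *Acly* (−0.52), *Scd1* (−0.79) and *Me1* (−0.13) changed sign, while *Scd2* did so under housekeeping centring (0.021) and without *ob/ob* array 3 (0.034, in a range of −0.37 to 0.034 over the arrays left out). *Acly* was called without *ob/ob* array 3 (log2 0.63, adjusted p = 0.0230), and *Thrsp* also with only probesets above the median level (adjusted p = 0.0496). The cause of these changes was not tested. Precision is limited by 3 arrays per genotype.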

Other observations

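The 5 other genes whose gene-centred values over the 6 arrays came nearest to the mean of the 10 genes, by root mean square distance among 19927 genes, were *Kyat3* (0.040), *Hsd11b1* (0.069), *Rgcc* (0.074), *Ppip5k1* (0.076) and *Amotl1* (0.076). Among the 10 genes *Fasn* was nearest to their mean (0.088) and *Acacb* farthest (0.708). *Hsd11b1*, which encodes the enzyme that regenerates active glucocorticoid, measured 8.44, 8.73 and 8.75 on the *ob/ob/Fsp27-/-* arrays, against 6.94, 7.66 and 7.87 on the *ob/ob* arrays (log2 1.15, limma adjusted p = 0.00990).

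*Elovl6*, named after its values were seen, encodes the elongase that extends the product of *Fasn* and is known as an SREBP target. It measured 8.33, 7.86 and 7.18 on the *ob/ob/Fsp27-/-* arrays and 8.05, 9.03 and 9.54 on the *ob/ob* arrays. The genotypes overlapped, and the log2 fold change of −1.08 (standard error 0.42) did not pass the test (limma adjusted p = 0.0967), while *Fasn* and *Srebf1* were called higher. *Pparg*, the nuclear receptor of adipocyte differentiation, also named after its values were seen, had a log2 fold change of 0.33 (limma adjusted p = 0.145) where 10 of 12 white adipocyte markers were called higher.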
